A study of Mus musculus with 34 samples.

Results

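The experiment compared the livers of PiZ mice labelled as lacking the p50 subunit of NF-kB with those of PiZ mice whose p50 was intact. The human transgene of PiZ mice encodes the Z form of alpha-1 antitrypsin, a protease inhibitor made by hepatocytes, which in this form polymerizes inside the endoplasmic reticulum (ER). It took 10 of the 34 libraries of the series: 5 labelled PiZ p50-KO, named PiZ p50KO 1 to 5 here, and 5 labelled PiZ, numbered in the same way. All 10 were whole liver of male mice 3 months old, on chow, injected with the vehicle PBS. Per the series' design the knockout is homozygous (-/-), the human transgene is present in both groups, and both were given the same vehicle. The labels name neither the strain background nor the promoter of the transgene, and they do not say which part of the p50 gene is missing. The human transgene has no row among the deposited values. Libraries of wild-type (WT) mice given PBS, from the same batch, are used only as a reference level, without a test.

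NF-kB is a family of transcription factors that act as pairs of subunits. The subunit p50 is cut from a longer protein, p105, and both are products of the gene Nfkb1. The subunits p65 (Rela), RelB and c-Rel carry a domain that activates transcription. p50 lacks one, so that p50 paired with p65 activates genes while pairs of p50 alone can hold them back. In the resting cell IkB proteins keep the pairs in the cytoplasm, and several of the genes that NF-kB turns on, such as Nfkbia and Tnip1, feed back to limit it. In liver the pathway serves the inflammatory response of hepatocytes and macrophages and the survival and division of hepatocytes after injury.

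The pairs bind kB sites in promoters. Stretches of promoters that hold such letters are shown for 5 genes called lower in PiZ p50KO with all 10 libraries. They are also shown for 2 chemokine genes that were not called. Matches stood as well before Cxcl1, Cxcl9, Cyld, Rel, Tlr2 and Tnfaip3, which were tested, not called lower with all libraries and are not printed. A further stretch of Nfkb2 (chr19:46304678-46304736) held 4 matches and is not printed either. The letters searched were the kB motif in 2 forms, each of 3 G bases, 2 bases of any kind and then T and C bases (3 T and 2 C, or 2 T and 3 C), on both strands, and a match of one can overlap a match of the other. The sequences are from RefSeq (build GRCm38.p6), run 5′ to 3′ in the direction of transcription, end before a transcript start that RefSeq lists, which for Nfkb2 lies inside the gene, and have the matching letters in capitals. Ubd lies on the plus strand (chr17:37193857-37193891), Nfkb2 on the plus strand (chr19:46305685-46305734), Nfkbia on the minus strand (chr12:55492648-55492696), Tnip1 on the minus strand (chr11:54962968-54963017) and Csf1 on the minus strand (chr3:107760594-107760643). Cxcl2 lies on the plus strand (chr5:90903782-90903850) and Cxcl10 on the minus strand (chr5:92348963-92349012).
Ubd: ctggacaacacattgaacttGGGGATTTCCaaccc
Nfkb2: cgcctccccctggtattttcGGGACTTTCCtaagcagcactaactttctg
Nfkbia: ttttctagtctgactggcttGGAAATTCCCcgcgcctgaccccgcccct
Tnip1: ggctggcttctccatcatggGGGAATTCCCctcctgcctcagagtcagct
Csf1: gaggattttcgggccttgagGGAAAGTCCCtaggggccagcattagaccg
Cxcl2: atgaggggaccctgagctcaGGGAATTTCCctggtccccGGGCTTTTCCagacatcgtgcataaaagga
Cxcl10: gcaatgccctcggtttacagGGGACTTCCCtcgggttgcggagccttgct

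Of the 12896 genes tested, 9535 had a promoter in the table, and 379 of these (3.97%) held a match within the 250 bases before a listed transcript start. Among genes called lower in PiZ p50KO the share was 60 of 1451 (4.14%), and among genes called higher it was 5 of 179 (2.79%). Without PiZ p50KO 1 and 2 the shares were 32 of 718 (4.46%) for lower genes and 5 of 124 (4.03%) for higher genes. The shares of promoters with a match among all genes that changed thus lay near that of all genes tested. In the list of NF-kB target genes, 7 of 22 promoters (31.8%) held a match. A match describes these letters and not a bound site.

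The 5 libraries labelled PiZ p50KO were not alike. The targeted gene, Nfkb1 (ENSMUSG00000028163, chr3:135584655-135691547 in GRCm38), was at 4.51, 4.86, 3.31, 3.74 and 3.37 log2 CPM in PiZ p50KO 1 to 5 (log2 of reads per M reads of the library). In PiZ 1 to 5 it was at 5.58, 5.45, 5.00, 4.62 and 5.12, and in WT at 3.92 to 4.34. The libraries labelled PiZ p50KO 3, 4 and 5 lay below all PiZ and WT libraries, whereas those labelled PiZ p50KO 1 and 2 lay above all WT libraries. PiZ p50KO 1 lay below all PiZ libraries, and PiZ p50KO 2 above PiZ 4. Nfkb1 reads were present in every library. By its RNA level alone, set against WT, the targeted gene thus did not bear out the label in PiZ p50KO 1 and 2. A level of the whole gene does not settle whether p50 is missing in any of the 5 libraries. The labels could not be checked further, since the deleted part of Nfkb1 is not given, and values with all 10 libraries follow them. The difference was -1.20 ± 0.31 log2 units (standard error, adjusted p = 0.0214 by limma) and -1.68 ± 0.22 (adjusted p = 0.00268) without PiZ p50KO 1 and 2. An exact two-sided permutation test of the libraries gave p = 0.0159 with all 10, and p = 0.0179 without PiZ p50KO 1 and 2, which is the smallest that 3 against 5 libraries allow. PiZ p50KO 1 and 2 had the highest Nfkb1 levels of the 5, so leaving them out widens the difference of itself. The Nfkb1 values without them therefore add no support.

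The same split ran through the genes that separate PiZ from WT liver. Over 896 genes whose PiZ and WT libraries do not overlap and whose means differ by at least 2 log2 units (854 of them higher in PiZ), each library was given a place between the WT mean (0) and the PiZ mean (1). The median place was 0.163 and 0.175 for PiZ p50KO 1 and 2, 0.447 for PiZ p50KO 3, and 0.709 and 0.663 for PiZ p50KO 4 and 5. WT libraries had medians from -0.0310 to 0.0708 and PiZ libraries from 0.908 to 1.07. The genes and both ends of the scale were taken from these same WT and PiZ libraries. Their medians near 0 and 1 thus follow from the choice, in which the PiZ p50KO libraries took no part. On this scale PiZ p50KO 1 and 2 lay near WT, PiZ p50KO 4 and 5 nearer to PiZ, and PiZ p50KO 3 between. Counts of genes and the differences of named genes are therefore given with all 10 libraries and again without PiZ p50KO 1 and 2, a comparison of 3 libraries against 5 that is also called 3 against 5.

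**Figure D1:**
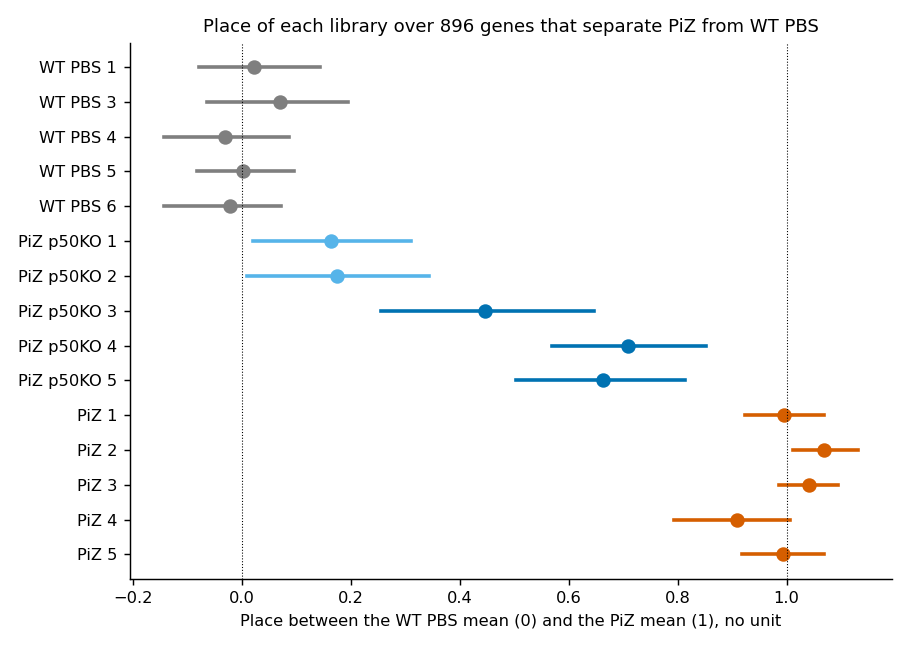
Place of each library between the WT PBS mean (0) and the PiZ mean (1), without unit, over 896 genes; points are medians over genes and bars run from the lower to the upper quartile. PiZ p50KO 1 and 2 sit at 0.163 and 0.175, PiZ p50KO 3 at 0.447, and PiZ p50KO 4 and 5 at 0.709 and 0.663.

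The 10 libraries held 35.5 to 52.3 M reads, and the 5 WT libraries used as reference 41.6 to 54 M. A further WT library, WT PBS 2, held 10.2 M reads, of which 72.2% lay on protein-coding genes, and is left out. Hepatocyte markers (Alb, Ttr, Apoa1, Fabp1 and Trf) summed to 83300 to 130000 CPM in PiZ p50KO and 76900 to 108000 CPM in PiZ, so each library was liver by its markers. In whole liver, fewer cells of a type and less RNA per cell cannot be told apart. Transcripts of the pancreas (Prss2, Cela2a, Cpa1, Pnlip and Ctrb1) summed to 56.6 to 844 CPM in PiZ p50KO 3 to 5, 1.86 to 17.8 CPM in PiZ p50KO 1 and 2, 2 to 55.3 CPM in PiZ and 0.313 to 1.24 CPM in WT. In the comparison without PiZ p50KO 1 and 2, 7 of 11 pancreatic enzyme genes were called higher, among them Pnlip, a lipase secreted into the gut (5.70 ± 1.31 log2 units, adjusted p = 0.0278). With all 10 libraries, limma called 0 of these 11, with 6 at an unadjusted p below 0.05 and 0 called with voom weights.

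With all 10 libraries, 248 of 12896 genes were called higher in PiZ p50KO (1.92%) and 1932 lower (15%), at an adjusted p below 0.05. Without PiZ p50KO 1 and 2, 174 were called higher (1.35%) and 968 lower (7.51%), or 8.86% in either direction. The counts for each gene list are to be read beside these shares. The 2 comparisons shared 121 higher and 876 lower genes, with 0 in opposite directions, but they also share 8 libraries. The median difference over all genes was -0.22 log2 units in both, and changes are best read against it. When every library was shifted to the same median, 740 genes were called higher and 950 lower (56.2% of the calls lower, against 88.6% without the shift). After that shift without PiZ p50KO 1 and 2 the counts were 429 and 621 (59.1% lower, against 84.8%). The number of calls also turned on single libraries. Leaving out PiZ p50KO 1, PiZ 1, PiZ 2 or PiZ 3 brought the lower genes to 1139, 1258, 962 and 945, and leaving out PiZ p50KO 3 brought the higher genes to 416. In 26 of the 35 gene lists described here, leaving out some 1 library moved the count of calls by over 1.5 times, and in 32 of 35 without PiZ p50KO 1 and 2.

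Among the other NF-kB subunits, the gene of p52, Nfkb2, was at 2.53, 3.35, 2.28, 3.69 and 3.07 log2 CPM in PiZ p50KO 1 to 5 and at 5.22, 5.07, 4.01, 3.64 and 4.60 in PiZ 1 to 5. All PiZ p50KO libraries but the fourth lay below all PiZ libraries. Nfkb2 differed by -1.52 ± 0.34 (adjusted p = 0.0125), and by -1.50 ± 0.41 without PiZ p50KO 1 and 2 (adjusted p = 0.0541). Relb was at 1.43, 1.55, 0.93, 3.00 and 2.75 in PiZ p50KO and at 5.16, 4.94, 3.32, 2.31 and 3.83 in PiZ, so the groups overlapped. Its difference of -1.98 ± 0.55 passed with all libraries (adjusted p = 0.0312) and not without PiZ p50KO 1 and 2 (-1.69, adjusted p = 0.167). Rela, the gene of p65, fell by 0.69 with all libraries (adjusted p = 0.0301, and -0.62 ± 0.21 in 3 against 5, adjusted p = 0.107). Rel differed by -0.62 (adjusted p = 0.0754, and -0.45 ± 0.25 in 3 against 5, adjusted p = 0.3). In all, 4 of 5 subunit genes were called lower with all libraries, and only Nfkb1 without PiZ p50KO 1 and 2. With any 1 of the 10 libraries left out, 1 to 4 subunit genes were called lower, the count moving most without PiZ p50KO 1, PiZ 1, PiZ 2 or PiZ 3.

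The genes that NF-kB turns on were lower in part. Of 29 NF-kB target genes tested, 10 were called lower and 0 higher with all libraries (median -1.10), against 15% and 1.92% of all genes. In the comparison without PiZ p50KO 1 and 2, 5 were called lower and 1 higher (median -0.62). Leaving out single libraries gave 5 to 16 lower, and PiZ p50KO 1, 2 and 4 and PiZ 1, 2, 3 and 5 each moved the count by over 1.5 times. After the median shift 5 were lower and 1 higher.

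Ubd, a ubiquitin-like modifier also called FAT10 (chr17:37193892-37196095), was at -0.77, -2.0, -1.43, -1.21 and -1.04 log2 CPM in PiZ p50KO 1 to 5. In PiZ it was at 3.13, 3.62, 4.19, 3.91 and 3.53, and in WT at -3.56 to -1.81. All 5 PiZ p50KO libraries lay far below PiZ, including those in which much of the PiZ pattern was present, and 4 of them above all WT libraries. Ubd fell by 4.97 ± 0.27 (adjusted p = 6.19e-06) and by 4.91 ± 0.25 without PiZ p50KO 1 and 2 (adjusted p = 1.68e-05). The promoter stretch of Ubd printed above holds its match 15 bases before the start.

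Lcn2, the gene of lipocalin 2, an iron-scavenging acute-phase protein, was at 6.90, 3.57, 3.94, 5.22 and 6.15 in PiZ p50KO and at 8.97, 9.17, 8.68, 7.99 and 8.61 in PiZ, with WT at 1.26 to 2.77. The groups did not overlap, as for 1572 genes lower (12.2%) and 201 higher (1.56%) of all tested, and every PiZ p50KO library stayed above WT. Lcn2 fell by 3.53 ± 0.55 (adjusted p = 0.00236), and by 3.58 ± 0.44 without PiZ p50KO 1 and 2 (adjusted p = 0.00174). Csf1, the growth factor of macrophages, was at 2.89, 3.23, 2.13, 3.10 and 2.74 in PiZ p50KO and at 4.19, 4.57, 3.67, 3.30 and 3.86 in PiZ. It was chosen for its promoter match after its values were seen, and fell by 1.10 ± 0.26 (adjusted p = 0.016), and by 1.26 ± 0.31 in 3 against 5 (adjusted p = 0.0339).

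Saa3, a serum amyloid A gene, went the other way in part of the libraries. It was at 2.13 and 2.07 in PiZ p50KO 1 and 2, at 4.87, 5.75 and 5.76 in PiZ p50KO 3 to 5 and at 4.35, 3.42, 2.99, 3.50 and 3.52 in PiZ. PiZ p50KO 3 to 5 lay above PiZ and PiZ p50KO 1 and 2 below it. Saa3 rose by 1.91 ± 0.31 without PiZ p50KO 1 and 2 (adjusted p = 0.00635), with a difference of 0.56 when all libraries were used (adjusted p = 0.629).

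Of 12 genes of IkB proteins and feedback inhibitors, 4 were called lower with all libraries (median -0.55) and 1 without PiZ p50KO 1 and 2 (median -0.48). The one called in both was Tnip1, which blocks NF-kB signalling together with A20. Its level was 3.24, 3.51, 4.01, 4.77 and 4.02 in PiZ p50KO against 5.68, 5.75, 5.38, 4.93 and 5.27 in PiZ, without overlap. Tnip1 fell by 1.49 ± 0.26 (adjusted p = 0.00433), and by 1.14 ± 0.24 without PiZ p50KO 1 and 2 (adjusted p = 0.0186). Nfkbia, the gene of IkB-alpha, was at 4.67, 4.81, 4.67, 5.80 and 5.39 against 6.45, 6.27, 5.65, 5.70 and 6.08, so PiZ p50KO 4 overlapped PiZ. Its fall of 0.96 ± 0.24 passed with all libraries (adjusted p = 0.0207) and not without PiZ p50KO 1 and 2 (-0.74, adjusted p = 0.126). Tnfaip3, the gene of A20, differed by -1.66 ± 0.58 and was called in neither comparison (adjusted p = 0.068, and -0.66 ± 0.36 in 3 against 5, adjusted p = 0.29).

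**Figure D2:**
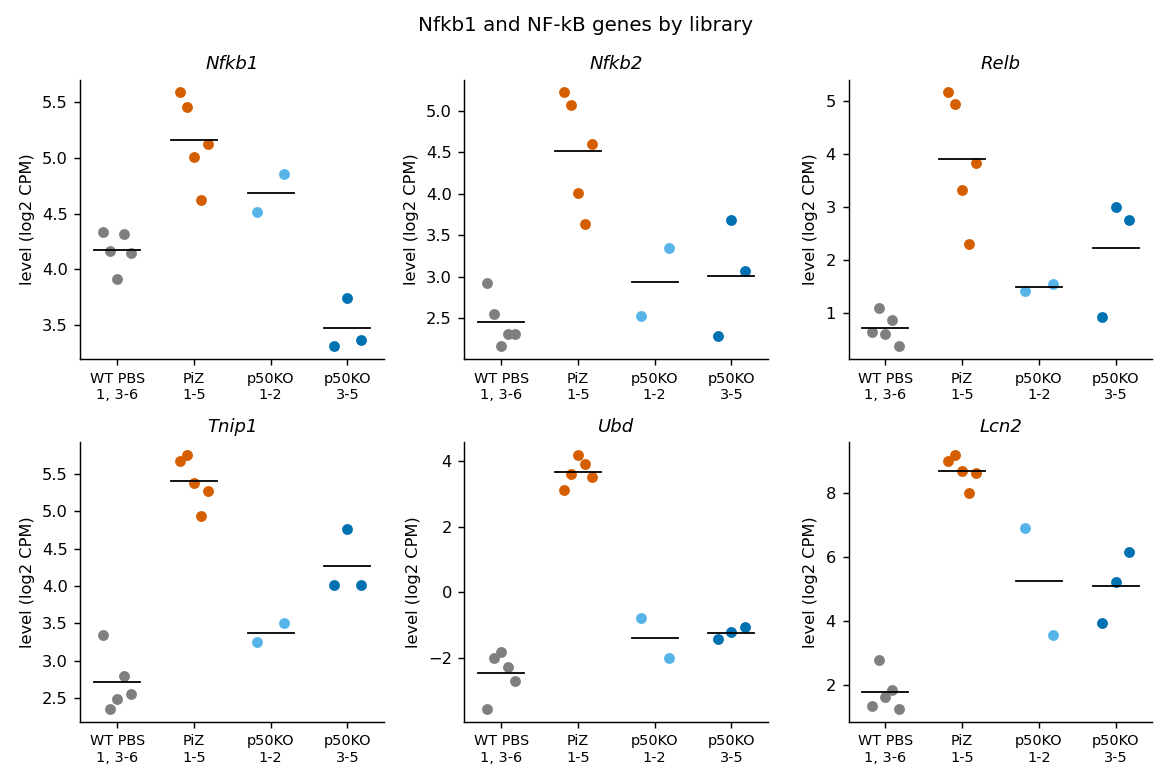
Level (log2 CPM) of Nfkb1 and 5 other genes of the NF-kB pathway in each library (points) with the mean of the libraries shown (lines), for WT PBS, PiZ, PiZ p50KO 1 and 2 and PiZ p50KO 3 to 5. Nfkb1 is lowest in PiZ p50KO 3 to 5, at 3.31 to 3.74, while Ubd is below 0 in all 5 PiZ p50KO libraries and at 3.13 to 4.19 in PiZ.

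Of 17 chemokine genes, 5 were called lower with all libraries (median -1.15) and 4 without PiZ p50KO 1 and 2 (median -0.64). The shares of all genes were 15% and 7.51%. Cx3cl1, a membrane-bound chemokine, was at -0.77, 0.07, 0.05, 1.09 and 0.64 in PiZ p50KO and at 2.38, 2.94, 2.08, 1.46 and 2.08 in PiZ. The groups did not overlap, and Cx3cl1 fell by 1.97 ± 0.36 (adjusted p = 0.00499), and by 1.59 ± 0.35 in 3 against 5 (adjusted p = 0.0232). Cxcl2 and Cxcl10, whose promoter stretches are printed above for contrast, were not called: Cxcl2 differed by -1.85 ± 0.73 (adjusted p = 0.099, and -0.99 ± 0.72 in 3 against 5, adjusted p = 0.434). Cxcl10 differed by -1.53 ± 0.78 (adjusted p = 0.198, and -0.62 ± 0.82 in 3 against 5, adjusted p = 0.677). Cxcl2, which attracts neutrophils, was at -2.61, -2.25 and -2.60 in PiZ p50KO 1 to 3 but at 1.32 and 0.45 in PiZ p50KO 4 and 5, within or above the PiZ values of 0.43 to 0.94. With single libraries left out, 4 to 10 chemokine genes were lower, the highest count coming without PiZ p50KO 4.

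Genes that respond to interferon showed how much the 5 libraries differed. The list of 31 interferon-stimulated genes had a median of -1.79 and -1.74 relative to the PiZ mean in PiZ p50KO 1 and 2, of -0.03, 0.08 and 0.05 in PiZ p50KO 3 to 5, and of -2.38 to -1.87 in WT. PiZ p50KO 3 to 5 were thus at the level of PiZ, and PiZ p50KO 1 and 2 just above WT. With all libraries 1 gene was called lower, Trim30a, which restrains Toll-like receptor signalling (-1.09 ± 0.34, adjusted p = 0.0451, and -0.48 ± 0.15 in 3 against 5, adjusted p = 0.0818), and leaving out single libraries gave 0 to 5. Without PiZ p50KO 1 and 2 limma called 0 of 31, with 2 higher and 1 lower at an unadjusted p below 0.05, and voom weights also gave 0. After the median shift, 4 were higher there and 0 lower.

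The guanylate-binding proteins and related GTPases, which act against intracellular microbes, behaved less uniformly. With all libraries 3 of 16 were lower (median -0.71), beside 15% of all genes. Without PiZ p50KO 1 and 2, 5 were lower and 1 higher (median -0.23), beside 7.51% and 1.35% of all genes. Igtp was at 3.47, 3.78, 4.26, 4.61 and 4.75 in PiZ p50KO and 5.43, 5.29, 5.44, 5.21 and 5.53 in PiZ, without overlap. It fell by 1.21 ± 0.23 (adjusted p = 0.00535), and by 0.84 ± 0.14 in 3 against 5 (adjusted p = 0.00814). Gbp6 was at -0.33 and -0.34 in PiZ p50KO 1 and 2, below PiZ (0.35 to 1.07), and at 2.20, 2.25 and 2.07 in PiZ p50KO 3 to 5, above PiZ. Its rise without PiZ p50KO 1 and 2 was 1.37 ± 0.22 (adjusted p = 0.00611), against a difference of 0.37 ± 0.54 (adjusted p = 0.68) with all libraries.

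Acute-phase proteins, which hepatocytes secrete in inflammation, did not move as a group: 2 of 29 were called higher and 3 lower with all libraries (median 0.16), and again 2 and 3 without PiZ p50KO 1 and 2 (median 0.17). Saa4 rose by 1.15 ± 0.22 (adjusted p = 0.00595), and by 0.89 ± 0.21 in 3 against 5 (adjusted p = 0.0328), and Hamp, the gene of the iron hormone hepcidin, fell by 1.24 ± 0.35 (adjusted p = 0.0339, and 0.0612 without PiZ p50KO 1 and 2). After the median shift the counts were 7 higher and 1 lower.

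The genes of antigen presentation are taken by MHC class, and the difference between the classes was not tested. With all libraries 4 of 9 class II genes were lower (median -1.02), and 2 of 9 without PiZ p50KO 1 and 2 (median -0.74). Cd74, the invariant chain, was at 5.78, 5.50, 5.54, 6.26 and 6.20 in PiZ p50KO and at 6.93, 7.32, 7.49, 6.62 and 7.35 in PiZ. Without overlap between the groups, it fell by 1.29 ± 0.21 (adjusted p = 0.00263), and by 1.14 ± 0.23 without PiZ p50KO 1 and 2 (adjusted p = 0.0176). Of 19 class I genes, 6 were lower and 1 higher with all libraries, and 0 lower and 1 higher without PiZ p50KO 1 and 2, where 7 were lower at an unadjusted p below 0.05 and voom weights gave 0 lower. The higher gene was H2-Q7, at 4.93 to 5.49 in PiZ p50KO and 4.37 to 4.72 in PiZ (0.70 ± 0.15, adjusted p = 0.00905, and 0.88 ± 0.13 in 3 against 5, adjusted p = 0.00421). For class I the median shift gave 3 higher and 3 lower with all libraries, and 2 and 1 without PiZ p50KO 1 and 2. H2 genes are near-identical copies, and how reads were split between them is uncertain.

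Markers of macrophages were lower in PiZ p50KO. Of 17 markers of recruited and lipid-associated macrophages, 13 were lower with all libraries (median -1.59) and 10 without PiZ p50KO 1 and 2 (median -1.20). Of 15 markers of Kupffer cells, the resident macrophages of liver, 10 and 5 were lower (medians -0.79 and -0.85). With single libraries left out the counts were 7 to 14 and 4 to 11. The recruited markers were fewest without PiZ p50KO 1 or 2 or PiZ 2, 3 or 5, and the Kupffer markers without PiZ 1, 2 or 3. After the median shift they were 10 and 3. The summed level of Gpnmb, Trem2, Itgax, Ccr2 and Ly6c2 was 5.20 to 7.22 CPM in PiZ p50KO 1 and 2, 35.3 to 80.0 in PiZ p50KO 3 to 5, 121 to 159 in PiZ and 2.28 to 6.61 in WT. Clec4f, Vsig4, Timd4, Cd5l and Marco summed to 120 to 204 CPM in PiZ p50KO, 214 to 355 in PiZ and 128 to 150 in WT. None of these markers was at 0 in every library of a group, and their part in the lower levels of cytokine, antigen presentation and matrix genes was not tested.

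Mmp12, the elastase of macrophages, was at 0.06 and 0.12 in PiZ p50KO 1 and 2, at 3.20, 4.18 and 4.32 in PiZ p50KO 3 to 5 and at 6.70, 6.85, 6.81, 6.37 and 5.92 in PiZ. It was thus at the level of WT (-0.82 to 1.13) in the first 2 libraries and between WT and PiZ in the other 3. Mmp12 fell by 4.15 ± 0.80 (adjusted p = 0.00618), and by 2.63 ± 0.29 without PiZ p50KO 1 and 2 (adjusted p = 0.00104). Itgax, which encodes CD11c, fell by 2.73 ± 0.57 and by 1.67 ± 0.25 in the same order (adjusted p = 0.00895 and 0.00495). Adgre1, the F4/80 antigen, was at 3.39 to 4.48 in PiZ p50KO and 4.52 to 5.43 in PiZ, and fell by 1.19 ± 0.23 (adjusted p = 0.00605), and by 1.13 ± 0.28 in 3 against 5 (adjusted p = 0.037).

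Other leukocytes gave fewer measured genes. Of 7 neutrophil markers, 3 were lower with all libraries (Itgam, Mmp9 and Fcgr3) and 1 without PiZ p50KO 1 and 2. There Itgam, an integrin that macrophages carry too, was the one called (-1.20 ± 0.27, adjusted p = 0.0255, and -1.52 ± 0.34, adjusted p = 0.0118 with all libraries). Of 4 defining markers of neutrophils (S100a8, S100a9, Ly6g and Retnlg), 3 were tested, and limma called 0 of them in either comparison. Of 5 markers of B and plasma cells, 3 and 2 were lower. Igkc, the kappa light chain, was at 1.94, 2.06, 1.60, 2.75 and 1.87 in PiZ p50KO and at 4.04, 5.02, 4.09, 3.82 and 3.71 in PiZ. It fell by 2.09 ± 0.27 (adjusted p = 0.00087), and by 2.06 ± 0.34 in 3 against 5 (adjusted p = 0.00662) without overlap, to the range of WT (1.68 to 2.85). Of 22 T and NK cell markers, 3 were tested, and limma called 0 of them in either comparison, with 0 at an unadjusted p below 0.05 and 0 with voom weights. The 5 defining ones were not tested, at 0.780 to 1.62 CPM summed in PiZ p50KO and 1.84 to 3.00 CPM in PiZ.

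Genes of scar-forming cells and matrix were lower in both comparisons. Of 27 collagen and matrix remodelling genes, 21 were lower with all libraries (median -1.49) and 19 without PiZ p50KO 1 and 2 (median -1.30), with 0 higher in either. Of 17 markers of stellate cells and fibroblasts, 14 and 10 were lower (medians -1.19 and -0.99). After the median shift 19 and 12 were still called lower with all libraries. With single libraries left out, 16 to 23 matrix genes and 9 to 14 stellate cell markers were lower, the 9 without PiZ 2. Lrat, Des, Pdgfrb, Dcn and Lum summed to 132 to 133 CPM in PiZ p50KO 1 and 2, 173 to 248 in PiZ p50KO 3 to 5, 327 to 363 in PiZ and 91.9 to 104 in WT.

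Col1a1, a chain of type I collagen, was at 3.14, 3.47, 4.03, 5.40 and 5.34 in PiZ p50KO and at 6.94, 7.61, 7.24, 6.35 and 7.32 in PiZ. The groups did not overlap, and the first 2 PiZ p50KO libraries were at or just above the level of WT (2.51 to 3.39). Col1a1 fell by 2.82 ± 0.43 (adjusted p = 0.00214), and by 2.17 ± 0.36 without PiZ p50KO 1 and 2 (adjusted p = 0.00672). Col3a1, the chain of type III collagen, was at 4.82, 5.02, 4.96, 5.90 and 5.81 against 7.54, 8.12, 7.90, 7.16 and 7.85. It fell by 2.41 ± 0.25 (adjusted p = 0.000191), and by 2.16 ± 0.27 in 3 against 5 (adjusted p = 0.00177). Lox, which cross-links collagen, fell by 2.42 ± 0.48 (adjusted p = 0.00719), and by 1.66 ± 0.35 in 3 against 5 (adjusted p = 0.0208), and Pdgfra, a growth factor receptor of fibroblasts, by 1.55 ± 0.21 (adjusted p = 0.000969), and by 1.30 ± 0.19 in 3 against 5 (adjusted p = 0.00393).

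Genes of bile duct cells, liver progenitors and keratins were lower for 10 of 14 with all libraries (median -1.43) and for 7 without PiZ p50KO 1 and 2 (median -1.34). Prom1, a surface protein of progenitor cells, was at -0.37, 0.07, -1.90, 0.41 and 0.12 in PiZ p50KO and at 2.72, 3.31, 2.79, 3.29 and 3.12 in PiZ. Every PiZ p50KO library was near WT (-1.0 to -0.05), and Prom1 fell by 3.38 ± 0.38 (adjusted p = 0.000371), or 3.50 ± 0.47 without PiZ p50KO 1 and 2 (adjusted p = 0.00276). Ly6d, by contrast, was near WT in PiZ p50KO 1 and 2 (-0.60 and -0.91), at 2.42 in PiZ p50KO 3 and at 6.14 and 5.41 in PiZ p50KO 4 and 5, where PiZ was at 5.71 to 7.31.

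Cell cycle genes gave the highest share of lower genes of the lists described. Of 28 tested, 26 were lower with all libraries (median -1.89) and 23 without PiZ p50KO 1 and 2 (median -1.76), and 0 were higher. The median of the list relative to the PiZ mean was -1.72, -2.43, -1.56, -1.40 and -2.01 in PiZ p50KO 1 to 5, against -3.34 to -2.73 in WT and -0.18 to 0.09 in PiZ. All 5 PiZ p50KO libraries thus lay between WT and PiZ, with no split of PiZ p50KO 1 and 2 from the rest. Leaving out any 1 library gave 23 to 27 lower genes, and the median shift 20.

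Ccnb2, a cyclin of mitosis, was at -1.09, -1.88, -0.36, -0.05 and -0.98 in PiZ p50KO and at 2.72, 2.66, 1.80, 2.30 and 1.87 in PiZ. It fell by 3.14 ± 0.35 (adjusted p = 0.000345), and by 2.73 ± 0.31 without PiZ p50KO 1 and 2 (adjusted p = 0.00116). Ccna2, a cyclin of S phase and G2, was at 0.51, -0.86, 0.56, 0.94 and 0.28 against 2.84, 3.35, 3.12, 3.00 and 2.66. Neither gene overlapped between the groups, and Ccna2 fell by 2.71 ± 0.30 (adjusted p = 0.000355), and by 2.40 ± 0.22 in 3 against 5 (adjusted p = 0.000361). Plk1, a kinase of mitosis, fell by 2.98 ± 0.50 (adjusted p = 0.0033), and by 2.48 ± 0.37 in 3 against 5 (adjusted p = 0.00435).

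Targets of p53, the tumour suppressor that answers DNA damage, were lower for 6 of 17 with all libraries and for 7 without PiZ p50KO 1 and 2 (medians -0.74 and -0.56). Eda2r, a receptor of the TNF receptor family, was at -0.98, -1.78, -0.18, 0.60 and -0.51 in PiZ p50KO and at 2.38, 2.52, 2.31, 2.29 and 1.84 in PiZ. It fell by 2.84 ± 0.38 (adjusted p = 0.000985), and by 2.30 ± 0.28 without PiZ p50KO 1 and 2 (adjusted p = 0.00174). Of 19 immediate early genes, which respond to stimuli within minutes, 6 and 5 were lower, beside 15% and 7.51% of all genes. Klf6 was at 2.55 and 2.64 in PiZ p50KO 1 and 2, at 4.90, 4.89 and 4.71 in PiZ p50KO 3 to 5 and at 5.90 to 6.66 in PiZ, and fell by 2.18 ± 0.47 (adjusted p = 0.0106), and by 1.29 ± 0.18 in 3 against 5 (adjusted p = 0.00345).

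**Figure D3:**
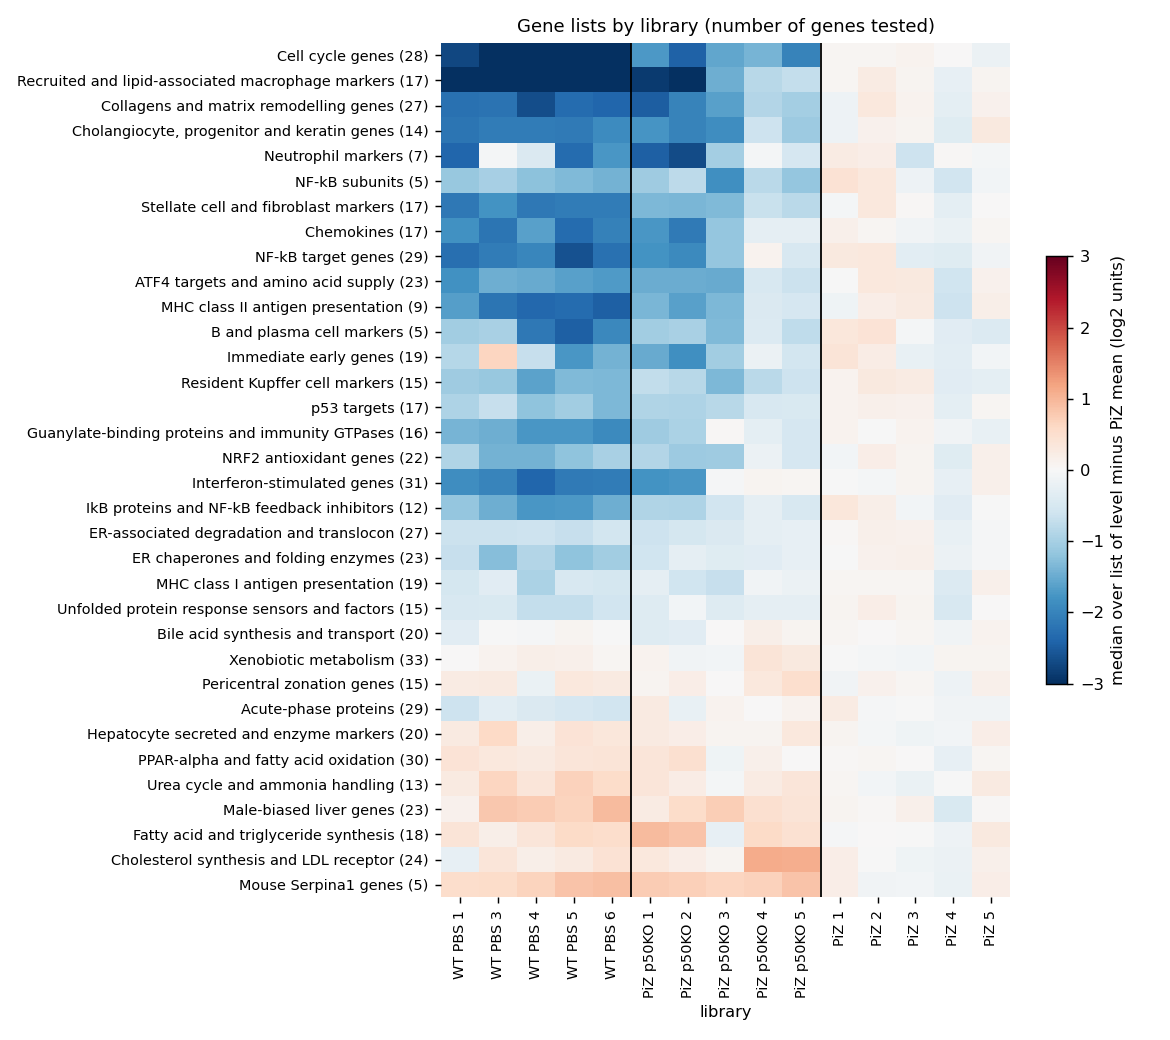
Median over the tested genes of each list of the level minus the PiZ mean (colour, log2 units, limited to 3 on either side of 0) in each library (columns), ordered by the median difference between PiZ p50KO and PiZ; the number of genes tested is in brackets and the pancreatic list is not drawn. Interferon-stimulated genes are at -1.79 and -1.74 in PiZ p50KO 1 and 2 and near 0 in PiZ p50KO 3 to 5, whereas cell cycle genes are at -2.43 to -1.40 in all 5.

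The stress responses of the ER, where the Z protein accumulates, are given in 3 lists. Of 23 ER chaperones and folding enzymes, 5 were lower with all libraries (median -0.35) and 2 without PiZ p50KO 1 and 2 (median -0.32), beside 15% and 7.51% of all genes. After the median shift 1 was lower in each. Manf, a secreted ER stress protein, was at 6.95, 6.85, 6.72, 6.84 and 6.80 in PiZ p50KO and at 7.64, 7.75, 7.88, 7.59 and 7.33 in PiZ, without overlap. It fell by 0.81 ± 0.12 (adjusted p = 0.00185), and by 0.85 ± 0.14 in 3 against 5 (adjusted p = 0.00609). Hspa5, the main chaperone BiP, was at 10.28, 10.62, 9.83, 10.15 and 10.05 against 10.81, 10.80, 10.75, 10.29 and 10.57. Its difference was -0.46 ± 0.16 with all libraries (adjusted p = 0.0737) and -0.64 ± 0.15 without PiZ p50KO 1 and 2 (adjusted p = 0.034).

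Among 27 genes that remove misfolded proteins from the ER or move proteins across its membrane, 5 and 4 were lower (medians -0.42 and -0.31). The shares of all genes were 15% and 7.51%, and 0 of the 27 were lower after the median shift in either comparison. Of 15 sensors and factors of the unfolded protein response, 4 and 1 were lower. Their median with all libraries was -0.23, where that of all genes was -0.22, and became 0.016 after the median shift. After that shift 3 of the 15 were still called lower with all libraries, where 950 of 12896 genes were, and 1 of 15 without PiZ p50KO 1 and 2. Creb3l1, an ER-bound transcription factor, was called in both (-1.21 ± 0.22, adjusted p = 0.00489, and -0.98 ± 0.21, adjusted p = 0.0234). Ddit3, the stress factor CHOP, fell by 1.25 ± 0.26 with all libraries (adjusted p = 0.00903) and differed by -1.09 without PiZ p50KO 1 and 2 (adjusted p = 0.0567).

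Targets of ATF4, the factor of amino acid shortage and stress, were lower for 9 of 23 with all libraries (median -1.04) and for 6 without PiZ p50KO 1 and 2 (median -0.80). Atf3 was at -1.42, -0.49, 0.75, 2.10 and 2.03 in PiZ p50KO and at 3.95, 4.22, 3.61, 2.94 and 3.44 in PiZ, and fell by 3.04 ± 0.61 (adjusted p = 0.00737), and by 2.01 ± 0.37 in 3 against 5 (adjusted p = 0.0109). WT libraries ranged from -0.97 to 5.29 for Atf3, a spread wider than the difference between PiZ p50KO and PiZ. Asns, asparagine synthetase, was at -1.09 and -1.28 in PiZ p50KO 1 and 2 but at 3.45, 4.00 and 3.40 in PiZ p50KO 3 to 5, below PiZ at 4.41 to 5.21. It fell by 3.20 ± 0.98 (adjusted p = 0.0442), and by 1.28 ± 0.22 in 3 against 5 (adjusted p = 0.00803). Of 22 NRF2 antioxidant genes, 10 and 5 were lower (medians -0.62 and -0.56). Gsta2, a glutathione transferase, was at 4.79, 4.02, 4.13, 4.70 and 4.43 against 6.10, 6.07, 5.99, 5.79 and 6.03, within the WT range or just below it, and fell by 1.58 ± 0.16 (adjusted p = 0.00019), and by 1.58 ± 0.15 in 3 against 5 (adjusted p = 0.000403).

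Of 20 genes of bile acid synthesis and transport, 4 were higher and 3 lower with all libraries, and 3 higher and 0 lower without PiZ p50KO 1 and 2. The median of the list was -0.15 in the first and 0.11 in the second, and 0.10 in the first after the median shift. Cyp8b1, the sterol 12-alpha-hydroxylase that sets the share of cholic acid, was at 8.58, 9.11, 8.40, 8.66 and 8.91 in PiZ p50KO and at 6.29, 6.22, 6.43, 6.08 and 6.68 in PiZ. All PiZ p50KO libraries lay in the range of WT (7.94 to 9.09) or, in PiZ p50KO 2, just above it. Cyp8b1 rose by 2.39 ± 0.16 (adjusted p = 9.75e-06), and by 2.32 ± 0.16 without PiZ p50KO 1 and 2 (adjusted p = 0.000138).

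Cyp7a1, the rate-limiting enzyme of bile acid synthesis, was at 5.33, 5.93, 6.91, 7.78 and 7.87 in PiZ p50KO and at 4.14, 5.81, 5.13, 5.10 and 3.91 in PiZ. PiZ p50KO 3 to 5 lay above PiZ, and PiZ p50KO 1 overlapped it. Its rise was 1.95 ± 0.51 (adjusted p = 0.0239), and 2.7 ± 0.42 without PiZ p50KO 1 and 2 (adjusted p = 0.00574). WT libraries spread from 3.12 to 8.08. Slc10a1, the bile acid uptake transporter NTCP, rose by 0.85 ± 0.13 (adjusted p = 0.00204), and by 0.79 ± 0.14 in 3 against 5 (adjusted p = 0.0104), while Abcc4, an export pump of the basal membrane, fell by 1.87 ± 0.43 with all libraries (adjusted p = 0.0136) and was not called without PiZ p50KO 1 and 2 (-1.35 ± 0.43, adjusted p = 0.0833).

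Of 33 genes of xenobiotic metabolism, 7 were higher and 2 lower with all libraries, and 8 and 4 without PiZ p50KO 1 and 2. Of all genes, 1.92% were higher and 15% lower in the first comparison, and 1.35% and 7.51% in the second. Members of 1 cytochrome family moved in opposite directions. Cyp2c37 was at 8.48, 8.0, 7.58, 7.42 and 6.98 in PiZ p50KO and at 4.75, 4.62, 4.84, 5.48 and 4.84 in PiZ, and rose by 2.78 ± 0.26 (adjusted p = 0.000102), and by 2.42 ± 0.21 in 3 against 5 (adjusted p = 0.000315). Cyp2c50 rose by 2.32 ± 0.18 (adjusted p = 2.52e-05), and by 2.29 ± 0.20 in 3 against 5 (adjusted p = 0.000293). Cyp2c39 was at 3.52, 3.05, 2.62, 3.52 and 3.41 in PiZ p50KO against 6.85, 6.65, 6.73, 7.80 and 6.92 in PiZ, with WT at 2.67 to 3.07. It fell by 3.76 ± 0.24 (adjusted p = 9.75e-06), and by 3.80 ± 0.29 without PiZ p50KO 1 and 2 (adjusted p = 0.000188). The Cyp2c genes are close copies, and reads shared between them may have been assigned to either.

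Several of the greatest rises of single genes were towards the level of WT. Vnn1, the pantetheinase vanin 1 and a target of PPAR-alpha, was at 5.80, 5.07, 4.16, 4.21 and 3.71 in PiZ p50KO, 0.81 to 1.52 in PiZ and 4.66 to 5.67 in WT. It rose by 3.42 ± 0.35 (adjusted p = 0.000173), and by 2.85 ± 0.22 in 3 against 5 (adjusted p = 0.00019). Pctp, which carries phosphatidylcholine, was at 6.71, 6.30, 6.30, 5.91 and 6.46 against 3.63 to 4.16 in PiZ, and rose by 2.39 ± 0.16 (adjusted p = 9.75e-06), and by 2.28 ± 0.17 in 3 against 5 (adjusted p = 0.000188). Glt1d1, a glycosyltransferase-like gene, rose by 2.40 ± 0.17 (adjusted p = 9.75e-06), and by 2.24 ± 0.18 in 3 against 5 (adjusted p = 0.00019).

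The wider PPAR-alpha and fatty acid oxidation list had 4 of 30 higher and 2 lower with all libraries, and 3 and 1 without PiZ p50KO 1 and 2. Of all genes, 1.92% were higher and 15% lower in the first comparison, and 1.35% and 7.51% in the second. The median shift brought the list to 9 higher and 1 lower in the first comparison, and 5 and 1 in the second. Acot1, an acyl-CoA thioesterase, rose by 1.53 ± 0.30 (adjusted p = 0.00683), and by 1.17 ± 0.30 in 3 against 5 (adjusted p = 0.0417), and Ucp2, a mitochondrial carrier also made by macrophages, fell by 1.32 ± 0.28 (adjusted p = 0.00937), and by 0.90 ± 0.22 in 3 against 5 (adjusted p = 0.0357). Of 18 genes of fatty acid and triglyceride synthesis, 3 and 1 were higher, and 9 and 4 after the median shift. Elovl3, a fatty acid elongase, rose by 1.79 ± 0.39 (adjusted p = 0.0111), and by 1.68 ± 0.45 in 3 against 5 (adjusted p = 0.05, just below the threshold). This list was split in another way: its median relative to PiZ was 0.95 and 0.85 in PiZ p50KO 1 and 2, -0.24 in PiZ p50KO 3 and 0.58 and 0.45 in PiZ p50KO 4 and 5. Without PiZ p50KO 3, 11 of its genes were called higher.

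Cholesterol synthesis genes were higher in PiZ p50KO 4 and 5. The median of the 24 genes relative to PiZ was 0.32, 0.19 and 0.08 in PiZ p50KO 1 to 3 and 1.11 and 1.10 in PiZ p50KO 4 and 5. With all libraries 7 were called higher (median 0.60), and 9 without PiZ p50KO 1 and 2 (median 0.84), with 0 lower. Idi1, isopentenyl diphosphate isomerase, was at 5.08 and 4.82 in PiZ p50KO 1 and 2, 6.85, 6.86 and 6.69 in PiZ p50KO 3 to 5 and 5.36 to 6.08 in PiZ, and rose by 1.15 ± 0.17 without PiZ p50KO 1 and 2 (adjusted p = 0.00435). Idi1 differed by 0.40 ± 0.40 (adjusted p = 0.519) with all libraries. Fdft1, squalene synthase, was at 7.42, 7.06, 7.35, 8.20 and 8.20 against 7.12, 6.74, 6.70, 6.68 and 6.96 and rose by 0.80 ± 0.22 (adjusted p = 0.0295), and by 1.08 ± 0.21 in 3 against 5 (adjusted p = 0.0135). Leaving out single libraries gave 1 to 9 higher genes in the first comparison and 3 to 17 in the second, and the median shift 12 and 18.

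In the pericentral list, of genes around the central vein, 5 of 15 were higher and 1 lower with all libraries, and 4 and 0 without PiZ p50KO 1 and 2. Glul, glutamine synthetase, which is made in the last ring of hepatocytes around that vein, was at 9.36, 9.28, 9.79, 9.90 and 9.63 in PiZ p50KO and at 8.16, 8.31, 8.31, 8.36 and 8.49 in PiZ. It rose by 1.27 ± 0.14 (adjusted p = 0.000313), and by 1.45 ± 0.12 without PiZ p50KO 1 and 2 (adjusted p = 0.000248), towards the WT range of 9.54 to 9.98. Slc1a2, a glutamate transporter, rose by 1.40 ± 0.17 (adjusted p = 0.000484), and by 1.61 ± 0.14 in 3 against 5 (adjusted p = 0.000315), and Lgr5, a receptor of Wnt signalling, by 0.89 ± 0.19 (adjusted p = 0.00992), and by 1.12 ± 0.17 in 3 against 5 (adjusted p = 0.00525). Of 13 urea cycle and ammonia genes, 4 were higher and 1 lower with all libraries. Glul alone was called without PiZ p50KO 1 and 2. The median shift gave 6 higher and 1 lower urea cycle and ammonia genes with all libraries, and 3 and 0 without PiZ p50KO 1 and 2. For the pericentral list it gave 7 and 1, and then 7 and 0.

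**Figure D4:**
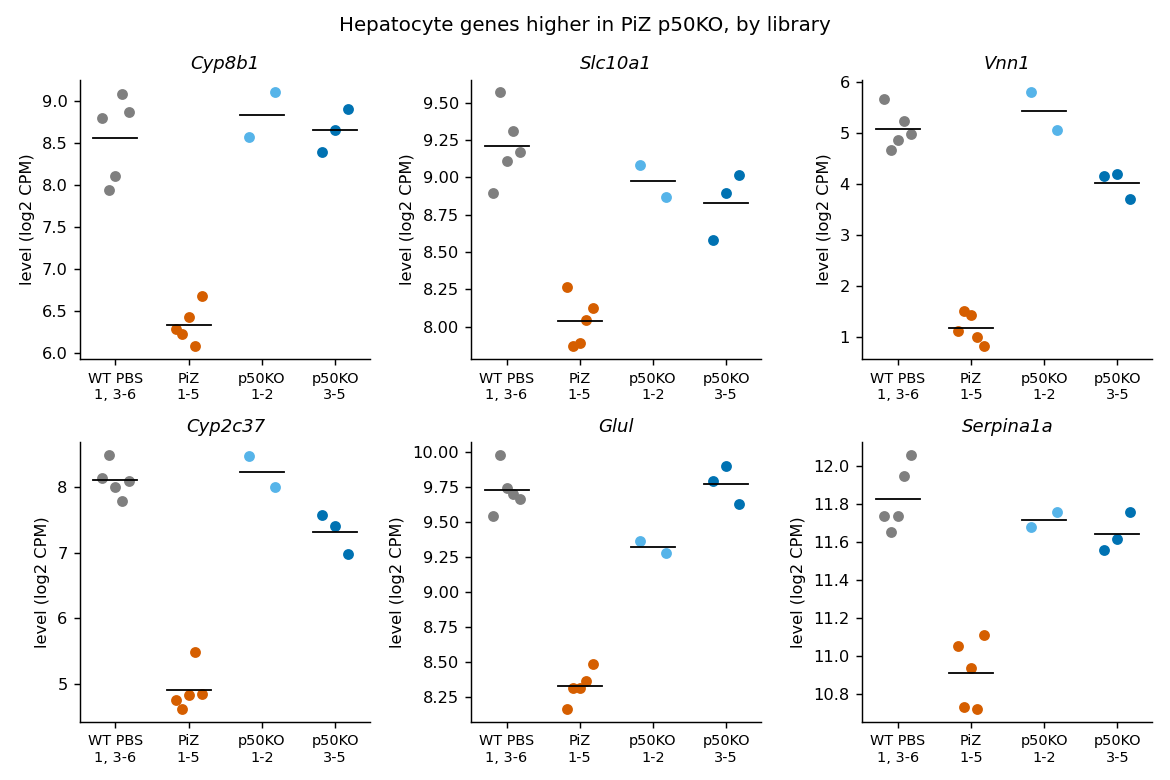
Level (log2 CPM) of 6 genes made by hepatocytes in each library (points) with the mean of the libraries shown (lines). All 5 PiZ p50KO libraries lie above all 5 PiZ libraries in each panel, as for Cyp8b1 at 8.40 to 9.11 against 6.08 to 6.68.

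Of 23 genes that are higher in male than in female liver, 8 were higher and 1 lower with all libraries, and 6 and 1 without PiZ p50KO 1 and 2. The median shift gave 11 and 1 with all libraries, and 8 and 1 without PiZ p50KO 1 and 2. Hsd3b5, a steroid reductase of male liver, was at 5.46, 6.72, 7.26, 6.49 and 5.78 against 4.53, 4.49, 4.59, 3.74 and 4.24, and rose by 2.03 ± 0.31 (adjusted p = 0.00212), and by 2.19 ± 0.31 in 3 against 5 (adjusted p = 0.00375). Mup20, a major urinary protein, fell by 1.81 ± 0.44 (adjusted p = 0.0171), and by 1.01 ± 0.18 in 3 against 5 (adjusted p = 0.0109). Among 20 secreted proteins and enzymes that mark hepatocytes, 3 and 2 were higher, and 6 and 4 after the median shift. Apoa1, the apolipoprotein of HDL, was at 12.98, 13.06, 12.90, 13.03 and 13.15 against 12.50, 12.21, 12.30, 12.30 and 12.75, and rose by 0.61 ± 0.14 (adjusted p = 0.0133), and by 0.61 ± 0.16 in 3 against 5 (adjusted p = 0.0479).

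The mouse's own alpha-1 antitrypsin genes were higher. Of the 5 Serpina1 genes, 4 were called higher in each comparison (medians 0.76 and 0.73), and 4 after the median shift. Serpina1a (chr12:103853589-103863562) was at 11.68, 11.76, 11.56, 11.62 and 11.76 in PiZ p50KO and at 11.06, 10.73, 10.94, 10.72 and 11.11 in PiZ, with WT at 11.65 to 12.06. It rose by 0.76 ± 0.12 (adjusted p = 0.00293), and by 0.73 ± 0.14 without PiZ p50KO 1 and 2 (adjusted p = 0.013). Serpina1e (chr12:103946931-103958975) was at 7.67, 7.46, 13.14, 13.30 and 9.56 in PiZ p50KO, 5.58 to 7.50 in PiZ and 6.09 to 7.77 in WT. PiZ p50KO 3 and 4 lay more than 5 log2 units above every WT and PiZ library. Serpina1e rose by 3.52 ± 1.09 (adjusted p = 0.0453), and by 5.29 ± 0.81 in 3 against 5 (adjusted p = 0.00518) and Serpina1d by 1.26 ± 0.29 (adjusted p = 0.0129), and by 1.63 ± 0.27 in 3 against 5 (adjusted p = 0.00672). Serpina1c was not called (0.50, adjusted p = 0.103, and 0.39 ± 0.24 in 3 against 5, adjusted p = 0.341). The 5 genes are near-identical copies, so the split of reads among them, and any share from the human transgene, is uncertain.

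A small set of genes set PiZ p50KO 3 to 5 apart from all other libraries, PiZ p50KO 1 and 2 included. In 72 genes (0.558%) they lay above the range of PiZ p50KO 1 and 2, PiZ and WT, and in 75 (0.582%) below it. In 8 of these the gap was at least 2 log2 units, 1 higher (0.00775%) and 7 lower (0.0543%). Gstp3, a glutathione transferase of the pi class (chr19:4057477-4059569), was at 10.18 and 9.99 in PiZ p50KO 1 and 2, at 3.41, 3.64 and 3.45 in PiZ p50KO 3 to 5, at 9.17 to 9.41 in PiZ and at 9.84 to 10.37 in WT. It fell by 5.81 ± 0.11 without PiZ p50KO 1 and 2 (adjusted p = 5.89e-09), with a difference of -3.18 ± 1.32 (adjusted p = 0.118) with all libraries.

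Gbp11, a guanylate-binding protein (chr5:105323042-105346472), was at 6.16 and 5.54 in PiZ p50KO 1 and 2, at 0.37, 0.16 and -0.03 in PiZ p50KO 3 to 5 and at 5.39 to 6.51 in PiZ, and fell by 5.79 ± 0.27 there (adjusted p = 1.35e-05). With all libraries Gbp11 differed by -3.52 ± 1.16 (adjusted p = 0.0576). Selenbp2, a selenium-binding protein (chr3:94693556-94704413), was at 4.47 and 4.32, then at 9.49, 10.04 and 10.07, and at 4.75 to 6.38 in PiZ, and rose by 4.07 ± 0.32 without PiZ p50KO 1 and 2 (adjusted p = 0.000216). Selenbp2 differed by 1.88 ± 1.13 (adjusted p = 0.27) with all libraries. Hist1h2al and Cyp2b9 were among the 7 lower genes, with 3 of predicted names. Hist1h2al had no read in PiZ p50KO 4, so its fold depends on the prior count. Timd4, a receptor of resident macrophages, was at 2.53 and 2.65, then at 0.31, 0.64 and -0.92, against 2.50 to 3.59 in PiZ, and fell by 3.12 ± 0.37 (adjusted p = 0.00141), or by 2.09 ± 0.59 (adjusted p = 0.033) with all libraries. It was singled out with Serpina1e for the plot after its values were seen. The 8 genes lie on 6 chromosomes, and none within 10 Mb of Nfkb1.

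**Figure D5:**
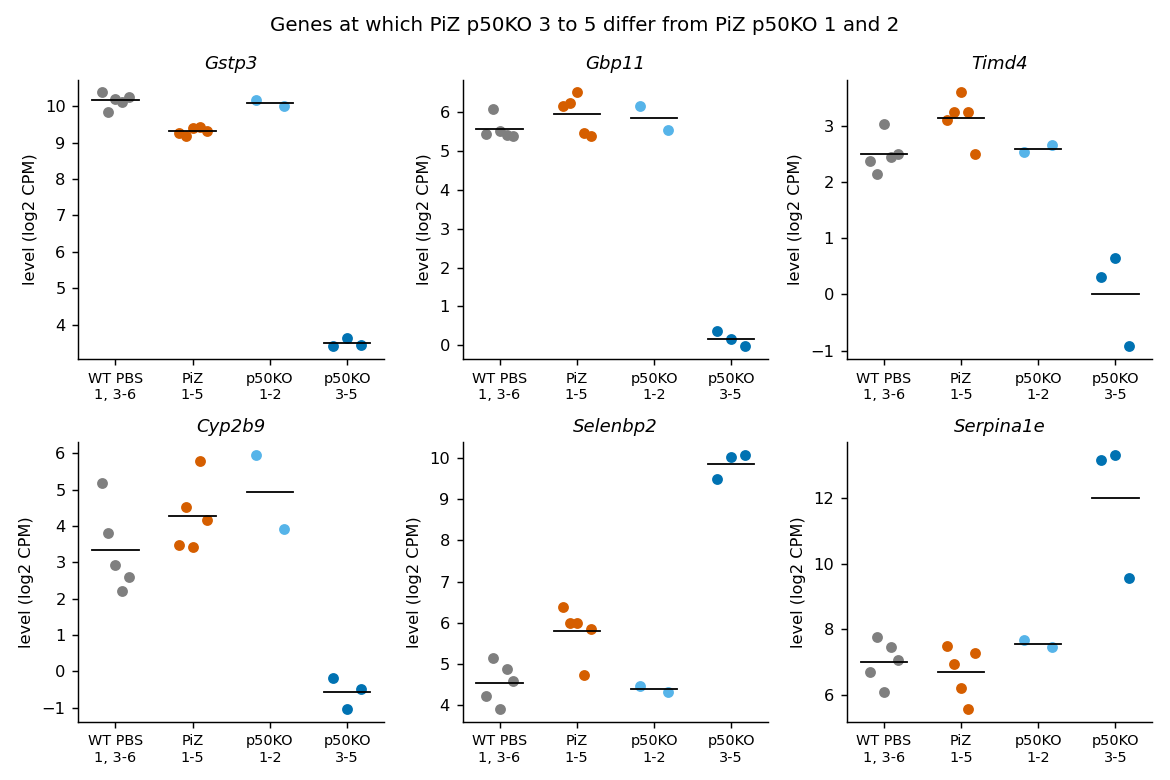
Level (log2 CPM) in each library (points) with the mean of the libraries shown (lines) for 6 genes at which PiZ p50KO 3 to 5 differ from PiZ p50KO 1 and 2. Gstp3 is at 3.41 to 3.64 in PiZ p50KO 3 to 5 and at 9.17 or more in every other library shown.

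Position on the chromosome was looked at only within 10 Mb of Nfkb1, and longer stretches were not examined. Of 12891 tested genes with a position, 77 (0.597%) lay within 10 Mb of Nfkb1, and among the genes called these were 15 of 2179 (0.688%) with all libraries and 8 of 1142 (0.701%) without PiZ p50KO 1 and 2.

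Few genes had all 5 PiZ p50KO libraries outside the levels of both other groups. PiZ p50KO 1 and 2 lay near WT (median places 0.163 and 0.175), which limits the counts given here. The same count for PiZ p50KO 3 to 5 alone was not made. All 5 PiZ p50KO libraries lay above every PiZ and WT library in 5 genes (0.0388%) and below them in 7 (0.0543%), and of these 1 and 3 were called in both comparisons. Fras1, an extracellular matrix protein (chr5:96373955-96784728), was at 2.60 to 2.92 in PiZ p50KO, 1.55 to 1.92 in PiZ and 2.13 to 2.53 in WT, and rose by 1.05 ± 0.15 (adjusted p = 0.00141), and by 1.03 ± 0.17 in 3 against 5 (adjusted p = 0.00662). Ces1b, a carboxylesterase (chr8:93056728-93080017), was at 6.41 to 6.87 in PiZ p50KO, 8.18 to 8.70 in PiZ and 6.93 to 7.0 in WT, and fell by 1.70 ± 0.13 (adjusted p = 2.52e-05), and by 1.76 ± 0.15 in 3 against 5 (adjusted p = 0.000276). Rnf128, a ubiquitin ligase, fell by 0.49 ± 0.09 (adjusted p = 0.00629), and by 0.48 ± 0.10 in 3 against 5 (adjusted p = 0.0184). The third lower gene has a predicted name. In 1436 genes (11.1%), by contrast, PiZ lay above every PiZ p50KO and WT library, and in 154 (1.19%) below them.

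Among the greatest falls with all libraries were genes with no read in PiZ p50KO 1 or 2. Vmn2r3, Sprr1a, Tinag, Npc1l1, Insyn1 and Wfdc3 each had no read in 1 or 2 of PiZ p50KO 1 and 2, so their fitted falls depend on the prior count. Tinag, a protein of basement membranes, had no read in PiZ p50KO 1, was at -3.46, -1.25, 0.11 and 0.06 in PiZ p50KO 2 to 5 and at 2.98 to 3.06 in PiZ. Without PiZ p50KO 1 and 2 it fell by 3.37 ± 0.30 (adjusted p = 0.000323). Psmc3ip, a factor of meiotic recombination, had reads in all libraries, at -4.01 to -1.35 in PiZ p50KO, 2.12 to 2.72 in PiZ and -2.27 to -0.78 in WT. It fell by 4.78 ± 0.45 (adjusted p = 0.000109), or 4.84 ± 0.53 without PiZ p50KO 1 and 2 (adjusted p = 0.000999).

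The remaining lists are given by their counts of calls, beside 15% lower and 1.92% higher of all genes with all libraries. Of 25 autophagy and lysosome genes, 6 were lower and 1 higher with all libraries, and 2 and 1 without PiZ p50KO 1 and 2. Of 18 kinases and adaptors that activate NF-kB, 3 and 1 were lower. Of 13 genes of the BCL2 family, which decides on cell death, 4 were lower with all libraries, and limma called 0 without PiZ p50KO 1 and 2, with 4 lower at an unadjusted p below 0.05 and 0 with voom weights. None of 19 hepatocyte transcription factors was called by limma in either comparison, with 1 and 0 at an unadjusted p below 0.05 and 0 with voom weights. Of 15 endothelial markers, 2 and 1 were lower, and of 34 coagulation and complement genes 1 in each. In the growth hormone and IGF1 axis 1 of 12 genes was lower in each comparison, and among metallothioneins and zinc transporters 1 of 8. Of 15 lipid droplet and lipolysis genes, 1 was higher and 2 lower with all libraries, and 1 was lower without PiZ p50KO 1 and 2. Of 11 genes higher in female than in male liver, 2 were higher and 1 lower, and then 1 higher and 3 lower. Among 17 genes of gluconeogenesis and glycogen 2 were higher and 2 lower, and 1 was lower in 3 against 5. Of 17 circadian clock genes, 1 was higher and 1 lower with all libraries. In 3 against 5 limma called 0 of these 17, with 2 higher and 3 lower at an unadjusted p below 0.05 and 0 with voom weights. Of 6 erythroid and mast cell markers limma called 0 in either comparison, with 0 at an unadjusted p below 0.05 and 0 with voom weights. With all libraries, the median shift gave 11 higher and 0 lower coagulation and complement genes, and 6 and 1 for gluconeogenesis and glycogen. Lower calls became 0 for endothelial markers and the BCL2 family, and 2 hepatocyte transcription factors were called higher. Genes higher in female liver stayed at 2 and 1. Of all 12896 genes, 740 were then higher and 950 lower. In 3 against 5 the shift gave 2 higher and 0 lower coagulation and complement genes.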

How the data were processed

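Liver RNA was sequenced by the submitters. Per the submitters' processing notes, bcl2fastq, DRAGEN, STAR 2.7.9a, Subread featureCounts 2.0.3 and edgeR were used with build GRCm38; settings, strand and annotation are not given in the sources used here. The authors deposited log2 CPM values, in which 0 reads stand at -6.52 in every library. Of 55774 rows, 287 repeat a gene ID and were dropped. Whole reads were recovered from the log2 values (100% of values up to 50 reads lay within 0.1 read of a whole number), and these reads gave the depth of each library.

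Genes above 1 CPM in at least 5 of the 10 libraries were tested (12896) with limma 3.58.1 in R 4.3.3 (lmFit, eBayes with trend), two-sided, adjusted by Benjamini and Hochberg over all of them at 0.05, with all 10 libraries and again without PiZ p50KO 1 and 2. "Called" means past this threshold. The fit was tested on simulated data, drawn for each gene separately from its own mean and spread, with known changes added. Such data hold neither the split among the PiZ p50KO libraries nor the shift between libraries. They therefore do not bear on the calls made here. The p-values measure the spread between libraries, taken as separate mice. Gene positions come from the GENCODE M21 annotation. Other genes named for a promoter, a marker sum or a contrast were chosen after their values were seen.

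Members, lists and tests were chosen with earlier results of these data known. Named are Nfkb1, the other subunits and the Serpina1 genes. Further named are, per comparison, the 8 greatest rises and falls among called genes without overlap, whose higher group averaged 2 log2 CPM or more, predicted names left out. From each of 35 lists described (of 49), up to 3 called members with the greatest change per comparison were taken, or the 1 with the greatest change if none was called. Genes beyond both PiZ and WT in both comparisons complete the rule. A gene that the rule names and a sum of cell type markers are not reported here. Alternatives are given in the closing section. Replicate numbers were checked for pairing and do not pair the libraries.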

Additional observations from a re-analysis of the deposited data

Results flagged for a closer look

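In 20 of 292 groups of 5 libraries checked, 1 library lay far from the other 4, where chance gives about 1 in 20. All values are in log2 CPM. Among PiZ libraries, PiZ 4 stood apart most often: Aen (4.06), Capg (3.19), Fkbp11 (4.35), H2-T22 (7.04) and Tmprss4 (1.86) were low there, and Cyp2c37 (5.48) and Cyp2c39 (7.80) high. PiZ 5 stood apart for Asl (8.64) and Cela2a (2.86). PiZ 1 stood apart for Gpnmb (6.46) and Klf6 (6.66), PiZ 2 for Igkc (5.02) and PiZ 3 for Ctss (7.87).

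Among PiZ p50KO libraries, PiZ p50KO 3 stood apart for Asl (7.99), Ces1b (6.41), Gpam (7.49) and Rel (3.40). PiZ p50KO 5 stood apart for Ddit3 (2.21), PiZ p50KO 4 for Serpina1c (10.15), and PiZ p50KO 2 for Itgam (-1.43).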

How the results depend on the processing

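Nfkb1 was lower under each alternative that was run. No other named gene changed direction under the alternatives to the fit with all libraries, wherever it was tested. Under the alternatives to 3 against 5, the direction of the other named genes was not checked. With all libraries, 7 list medians changed sign after the median shift: bile acid genes went from -0.15 to 0.10, autophagy genes from -0.21 to 0.04, NF-kB activating kinases from -0.19 to 0.06, metallothioneins from -0.18 to 0.07, lipid droplet genes from -0.03 to 0.23, the unfolded protein response from -0.23 to 0.016 and erythroid markers from -0.17 to 0.08. In 3 against 5 there were 7: interferon-stimulated genes went from -0.016 to 0.24, guanylate-binding proteins from -0.23 to 0.023, MHC class I genes from -0.23 to 0.028, metallothioneins from -0.12 to 0.13, autophagy genes from -0.19 to 0.065, lipid droplet genes from -0.22 to 0.040 and clock genes from -0.06 to 0.20. The planned edgeR and DESeq2 fits were not run, because the deposited values are log2 CPM; limma with voom weights on the recovered reads took their place and was chosen after seeing the data. Without PiZ p50KO 1 and 2, the comparison itself, the median shift and the replicate block were planned, and the other repeats were chosen after seeing the data. The number of genes called depended on scaling and on single libraries, and the cause was not tested.

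With all 10 libraries, 248 genes were higher and 1932 lower, and 968 were lower without PiZ p50KO 1 and 2. Shifting libraries to the same median gave 740 and 950, quantile normalization 645 and 923, and 1 fit over all libraries of the table (WT PBS 2 included) 60 and 407. In that fit Nfkb1 differed by -1.20 with adjusted p = 0.174 (limma). Leaving out 1 library gave 137 to 416 higher and 945 to 2586 lower, with Nfkb1 at -1.42 to -1.03 (adjusted p 0.0098 to 0.0608), not past the threshold without PiZ 1 (0.0549) or PiZ 2 (0.0608). The highest count of lower genes came without PiZ 4.

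Without PiZ p50KO 1 and 2, 174 were higher and 968 lower. The median shift gave 429 and 621, quantile normalization 333 and 550, a minimum of 4 CPM 604 lower, and 1 fit over all libraries 21 and 69, with Nfkb1 at -1.68 (adjusted p = 0.204, limma). Leaving out 1 library gave 74 to 206 higher and 447 to 1675 lower, with Nfkb1 at -1.81 to -1.57 (adjusted p 0.000873 to 0.0152). The remaining alternatives for the total called with all libraries gave 2292 (pseudocount), 1923 (no filter), 1521 (4 CPM), 2185 (robust moderation) and 2309 (voom), against 2180.

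With the replicate number as a block, 135 genes were higher and 850 lower with all libraries. The block fit without PiZ p50KO 1 and 2 left out PiZ 1 and 2 as well. It called 1 gene higher and 6 lower, and Nfkb1 differed by -1.44 (adjusted p = 0.17, limma). Its counts and its Nfkb1 difference therefore cannot be put down to the block alone. The libraries share only a number: deviations from the group means of the libraries numbered 1 to 5 correlated at -0.0292, 0.0360, -0.00633, -0.244 and 0.150 across genes, and no library numbered alike was the best partner.

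Not all of the 146 other named genes were past the threshold with all 10 libraries. Among those that were, 19 were no longer past it after the median shift, 18 after quantile normalization and 33 with the block. It was 79 in the fit over all libraries and 29 without PiZ p50KO 1 and 2. Another 23 were past the threshold without PiZ p50KO 1 and 2 but not with all 10 libraries.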
